A study of Homo sapiens with 6 samples.

Results

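The MIR21 hairpin yields a mature miRNA from each of its arms, hsa-miR-21-5p and hsa-miR-21-3p, and both were measured by small RNA sequencing of melanoma cells. The members were the 2 entries that carry these names among 1596 mature miRNAs in the count table. The RSL3 monotreatment group (3 libraries) and the group given RSL3 combined with IFN-γ (3 libraries) were both collected after 24 h. RSL3 is a small molecule that inactivates GPX4, the peroxidase that clears lipid peroxides, so that cells exposed to it are driven towards ferroptosis, an iron-dependent death by lipid peroxidation. IFN-γ is the cytokine that activated T cells release. The sample labels name the cells as A2058, whereas the study's text describes the sequenced cells as A375; both are established human melanoma lines, and these counts alone do not say which was used. Every library carried RSL3, and no untreated library or library with IFN-γ alone was analysed here, so the comparison shows the addition of IFN-γ to RSL3 and not the effect of RSL3. Whether the replicates came from separate cultures is stated in neither source, and the p-values rest on library-to-library spread that may be technical only.

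A miRNA hairpin is cut by Dicer into a duplex, and usually one strand, the guide, is held by an Argonaute protein while the other, the passenger, is degraded. The retained strand pairs with messenger RNAs, mostly in the 3′ untranslated region (3′UTR), through its seed at bases 2 to 8. For MIR21 the 5p arm is the usual guide and among the most abundant miRNAs of many tumors, with PDCD4 and SPRY family transcripts among the targets attributed to it. The 3p arm is its passenger, with another seed and so another set of possible targets. The study followed the 3p arm as a regulator of TXNRD1, the cytosolic thioredoxin reductase, which keeps thioredoxin reduced and takes part in the defence against oxidants. The promoter of MIR21 is known to respond to AP-1 and STAT3, and IFN-γ itself signals through its receptor (IFNGR1 and IFNGR2) and the kinases JAK1 and JAK2, and induces the transcription factor IRF1.

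MIR21 lies on the plus strand of chromosome 17 at chr17:59841266-59841337 (GRCh38), a hairpin of 72 bases. In GENCODE 29 the principal protein-coding transcript of VMP1, a gene of autophagosome formation on the same strand, ends 174 bases before the hairpin. Another VMP1 transcript of the retained-intron class, at chr17:59837931-59842255, holds the hairpin within an exon. The 5p arm is shown with its seed in capitals because the seed decides which transcripts it can pair with, and hsa-miR-590-5p, from chr7:74191213-74191234, is the only other mature miRNA in the RefSeq-derived sequence table (GRCh38.p14) with that seed. Both are 22 bases long, and outside the seed they differ.
hsa-miR-21-5p: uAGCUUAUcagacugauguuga
hsa-miR-590-5p: gAGCUUAUucauaaaagugcag

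Library depth ran from 4383940 to 6513382 counts in the table. Levels are given as CPM, the counts divided by the library's total and brought to a common total, scaled with trimmed-mean factors (TMM), which correct for a few miRNAs that take up much of a library. The factors were 0.861, 0.913 and 0.877 for RSL3 replicates 1 to 3 and 0.944, 1.33 and 1.15 for RSL3+IFN-γ replicates 1 to 3, so the scaling itself differed between the groups. A small RNA read covers the whole molecule, so no length correction was needed, but ligation and amplification differ with sequence, and the ratio of 2 arms in reads is not their ratio in molecules. Melanocyte-lineage miR-211-5p was present at 270 to 388 CPM, and miR-146a-5p, abundant in many melanoma lines, at 85729 to 147822 CPM. The X-linked melanoma cluster was scarce, with miR-506-3p, miR-508-3p and miR-509-3p below 3 CPM in every library, while miR-514a-3p ran from 14.5 to 76.0 CPM. Of the 4 tested members of the melanoma list miR-514a-3p fell by edgeR's test, in which 4.75% of all tested miRNAs changed. The melanocyte-linked miR-204-5p, at -0.75 on the log2 scale (edgeR adjusted p = 0.0750) without overlap between the groups, was called lower by DESeq2. Markers of other sources were summed by list. The highest sums with RSL3, 1713 CPM for fibroblast and 1334 CPM for muscle miRNAs, reached the level of miR-21-3p there (1054 to 1427 CPM). Of that muscle sum, miR-1-3p in RSL3 replicate 3 made up 1281 CPM. With RSL3 and with IFN-γ in turn, 6 blood miRNAs came to 102 to 169 and 86.0 to 333 CPM, 3 keratinocyte miRNAs to 87.0 to 128 and 79.8 to 101 CPM, 3 muscle miRNAs to 178 to 1334 and at most 278 CPM, and liver miR-122-5p to 29.1 to 90.4 and 68.3 to 174 CPM. The 5 fibroblast miRNAs came to 779 to 1713 and 458 to 672 CPM, without overlap, and 1 of them, miR-199b-5p, fell by edgeR's test. Once replicate numbers were blocked miR-122-5p was called higher. The part of such RNA in the results for MIR21 was not tested. In bulk libraries such as these, fewer cells of a type and less of an RNA per cell cannot be told apart.

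Regarding miR-21-3p, the arm rose when IFN-γ was added to RSL3. The RSL3 libraries held 5339, 6379 and 7567 reads of it, and the combined treatment libraries 10832, 14256 and 16809. Scaled, these were 1054, 1427 and 1325 CPM with RSL3 and 2618, 2436 and 2714 CPM with RSL3 and IFN-γ. The lowest library with IFN-γ lay above the highest without it, a separation in this direction that was shared by 15% of the 758 miRNAs tested. The group means were 1268 ± 193 CPM and 2589 ± 141 CPM (SD, n = 3 each).

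The increase of miR-21-3p was 1.03 on the log2 scale (SE 0.22), or 2.04-fold, with an adjusted p of 0.0316 in edgeR's quasi-likelihood test over all tested miRNAs. In that fit 19 miRNAs rose, 2.51% of those tested, and 36 changed in either direction (4.75%); with the replicate number as a block the latter count became 82. The split of 19 up and 17 down turned to 60 and 11 with library totals alone, 43 and 15 with totals taken without miR-21-5p, and 15 and 24 with upper-quartile factors. By size the increase ranked 63 of 758, and by p-value 17. The smallest two-sided exact permutation p that 3 libraries against 3 can give is 0.1, and miR-21-3p gave that value. The study chose miR-21-3p from these same libraries, so its direction here is not independent evidence. The call was lost without RSL3 replicate 1 (adjusted p = 0.199, edgeR), without RSL3 replicate 3 (adjusted p = 0.0745, edgeR), without RSL3+IFN-γ replicate 2 (adjusted p = 0.0909, edgeR), without RSL3+IFN-γ replicate 3 (adjusted p = 0.0920, edgeR), and with upper-quartile factors (adjusted p = 0.0504, edgeR), whereas the size stayed between 0.92 and 1.48 in every setting tried.

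The size of the increase depended on what the libraries were scaled to, and less so once compared with the other miRNAs. With library totals alone the increase was 1.39, but the median of all tested miRNAs then moved from -0.04 to 0.33. Relative to that median, miR-21-3p stood 1.07 higher with TMM factors, 1.06 higher with library totals and 1.06 higher with upper-quartile factors.

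**Figure D1:**
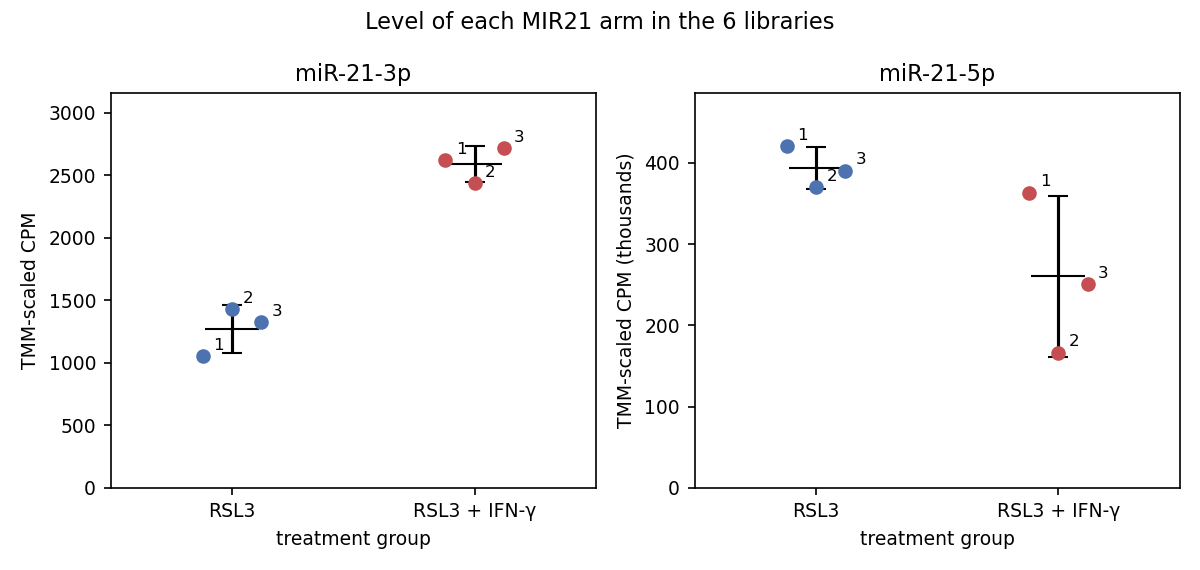
Level of miR-21-3p (left) and miR-21-5p (right) in TMM-scaled CPM for the 3 libraries of each treatment group; numbers beside the points are replicate numbers, horizontal bars the group means and error bars the SD. The miR-21-3p libraries with IFN-γ sit between 2436 and 2714 CPM, above all RSL3 libraries, while the miR-21-5p libraries with IFN-γ spread from 166414 to 363357 CPM, below the lowest RSL3 library at 369764 CPM.

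As for miR-21-5p, it was the most abundant miRNA in each of the 6 libraries and its difference between the groups did not pass the test. It took 36.2%, 33.8% and 34.3% of all counts in the RSL3 libraries. In the libraries with IFN-γ it took 34.3%, 22.1% and 28.9%, so that replicate 1 of this group was within the range of the RSL3 group and the other two were lower. The exact (Clopper-Pearson) 95% interval of the lowest share was 22.07% to 22.15%, which covers counting error only. On the TMM scale the levels were 420476, 369764 and 390551 CPM with RSL3 and 363357, 166414 and 250805 CPM with RSL3 and IFN-γ. The groups then no longer overlapped, as was so in this direction for 14.8% of tested miRNAs.

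The change of miR-21-5p was -0.60 on the log2 scale (SE 0.29), with an adjusted p of 0.223 in edgeR's quasi-likelihood test. The group means were 393597 ± 25493 CPM and 260192 ± 98807 CPM (SD, n = 3 each), and the spread was wider with IFN-γ. Without RSL3+IFN-γ replicate 1 the change was -0.93 (adjusted p = 0.0125, edgeR), and without RSL3+IFN-γ replicate 2 it was -0.37 (adjusted p = 0.399, edgeR). GC content moved with the fold changes: over 679 tested miRNAs with a mature sequence, Spearman's rho between GC content and log2 fold change was 0.47 across miRNAs, which are not independent replicates. The GC content of miR-21-5p is 36.4% against a median of 50%. With the GC trend of mature sequences removed the change of miR-21-5p was -0.14 (adjusted p = 0.777, edgeR), and with the GC trend of hairpin sides removed it was -0.43 (adjusted p = 0.355, edgeR). The hairpin sides hold 44.4% GC for miR-21-5p and 52.8% for miR-21-3p, and with their trend removed the increase of miR-21-3p was 1.00 (adjusted p = 0.0486, edgeR).

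**Figure D2:**
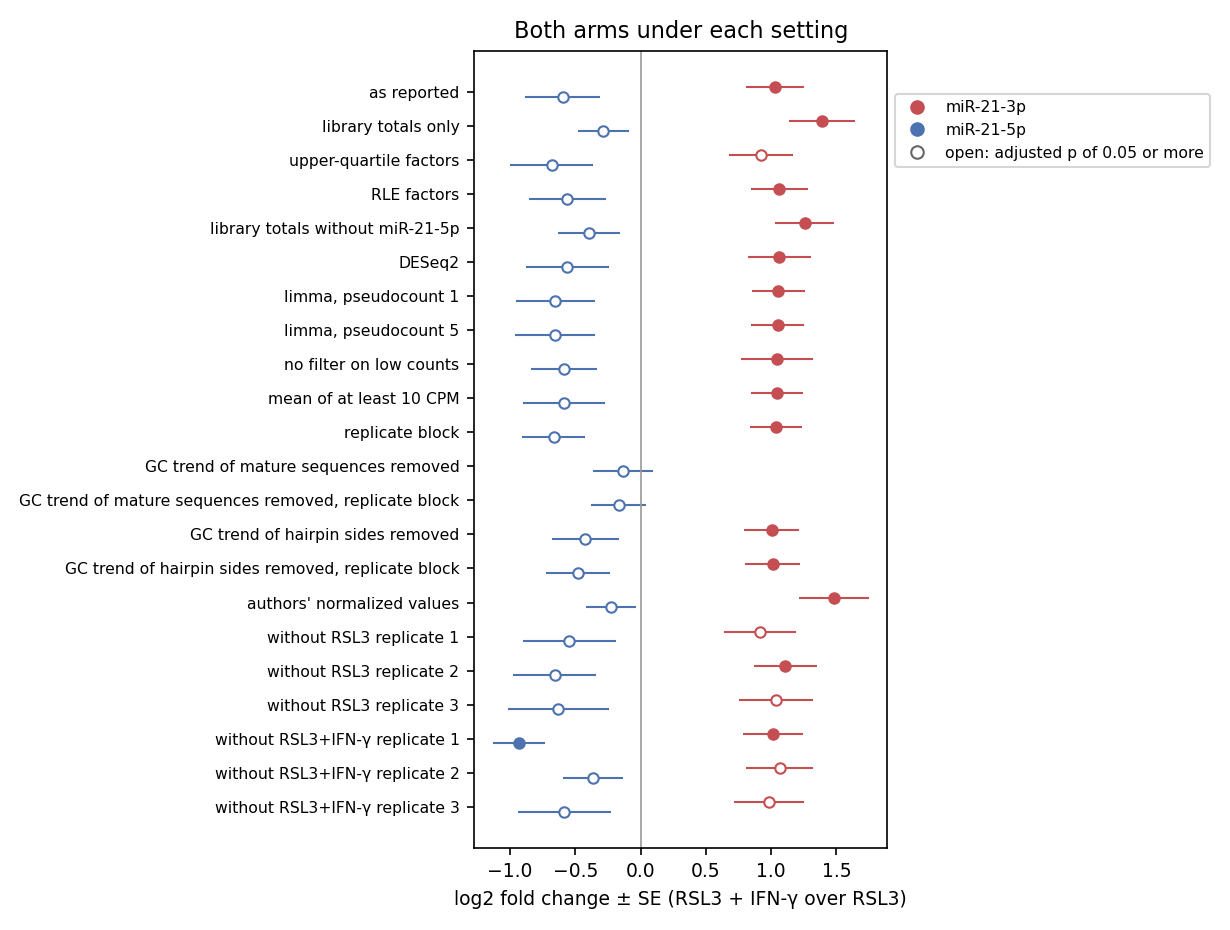
Log2 fold change of miR-21-3p (red) and miR-21-5p (blue), RSL3 + IFN-γ over RSL3, with SE, under each setting listed on the vertical axis; filled points have an adjusted p under 0.05. All miR-21-3p points lie between 0.92 and 1.48 and all miR-21-5p points between -0.93 and -0.14, of which 1 is filled.

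The order of levels put the arms far apart. By mean CPM over the 6 libraries miR-21-5p ranked 1 and miR-21-3p ranked 56 of 1596. The next below miR-21-5p was miR-146a-5p, an NF-κB-induced miRNA, at 107476 ± 22125 CPM (SD, n = 6), and its highest library, at 147822 CPM, was below the lowest of miR-21-5p. The third was let-7i-5p, at 57232 ± 18873 CPM. Around miR-21-3p, at 1929 ± 739 CPM over the 6 libraries, the neighbours were miR-182-5p at 2123 ± 700 and miR-106b-3p at 2119 ± 349 CPM above it, and miR-941 at 1924 ± 311 and miR-222-3p at 1762 ± 301 CPM below it. The ranges of these 4 overlapped that of miR-21-3p, so their order is within the spread. By raw count miR-21-3p ranked 61 to 68 in the RSL3 libraries and 45 to 50 in those with IFN-γ.

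Comparing the arms within a library needs no scaling between libraries, and it showed the 3p arm holding a larger part of the MIR21 reads with IFN-γ. In the RSL3 libraries miR-21-3p made up 0.250%, 0.384% and 0.338% of the reads of both arms. In the libraries with IFN-γ it made up 0.715%, 1.44% and 1.07%, so all 3 lay above the RSL3 libraries. The exact 95% intervals nearest to each other were 0.375% to 0.394% for RSL3 replicate 2 and 0.702% to 0.729% for RSL3+IFN-γ replicate 1; they cover counting error only, not the spread between replicates. Put as reads of the guide per read of the passenger, the values were 399, 259 and 295 with RSL3 and 139, 68.3 and 92.4 with IFN-γ. The 5p arm therefore remained in large excess in every library. The reads of both arms together followed the 5p arm, at 394865 ± 25302 CPM with RSL3 and 262781 ± 98889 CPM with IFN-γ (SD, n = 3 each). On this TMM scale the two-sided exact permutation p was 0.1, the smallest possible, with the nearest libraries at 371191 and 365975 CPM. With library totals alone miR-21-5p, which makes up most of this sum, overlapped between the groups (two-sided exact permutation p = 0.3).

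**Figure D3:**
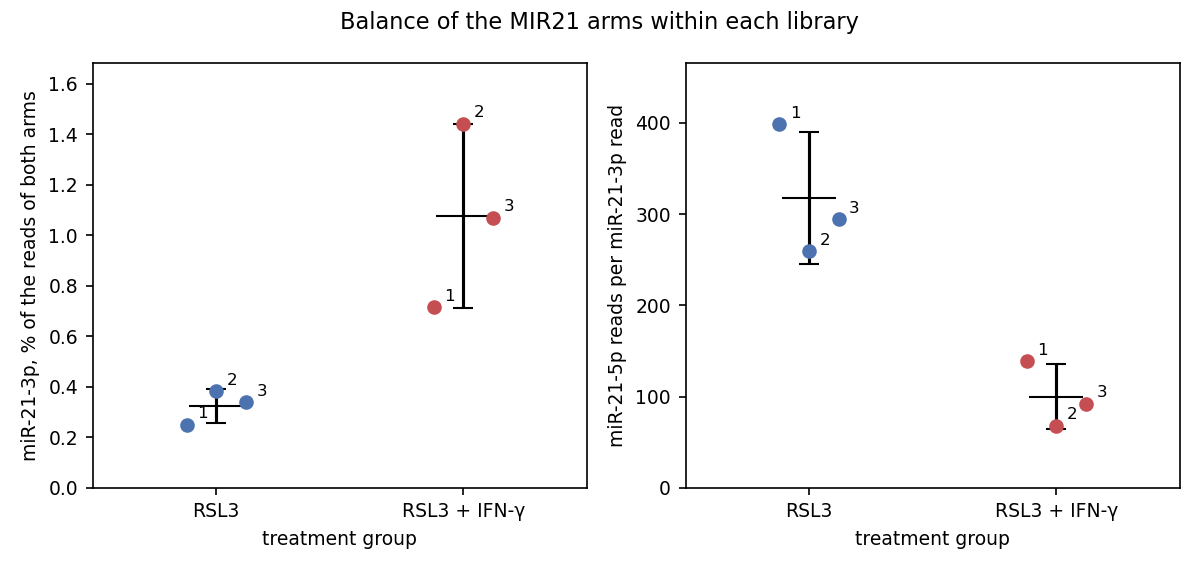
Balance of the MIR21 arms within each library: miR-21-3p as a percentage of the reads of both arms (left) and miR-21-5p reads per miR-21-3p read (right), by treatment group, with replicate numbers, group means and SD. The 3p share lies between 0.250% and 0.384% in the RSL3 libraries and between 0.715% and 1.44% in those with IFN-γ.

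The log2 ratio of 3p to 5p reads, with 0.5 reads added to each arm, was -8.29 ± 0.32 with RSL3 and -6.58 ± 0.51 with IFN-γ (SD, n = 3 each). The change was 1.71 (SE 0.37), or 3.27-fold, and the exact permutation p was 0.1, the smallest possible. Hairpins entered this test when each arm averaged 10 reads or more, which 181 did. Limma gave this change an unadjusted p of 0.00157 and an adjusted p of 0.0734, so it did not pass the threshold of 0.05. In that limma fit 0 hairpins passed (0%), 34 had an unadjusted p under 0.05, and 0 passed without the mean trend. The 3p arm of MIR21 gained in all 3 libraries with IFN-γ, and 13.8% of hairpins were separated in the same direction. With 5 reads added to each arm the adjusted p was 0.0263, and with hairpins held to an average of 50 reads or more per arm it was 0.0344, again by limma, with the change itself still 1.71. With the GC difference of the hairpin sides removed the change was 1.44 (adjusted p = 0.0939, limma).

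Other hairpins dominated by their 5p arm gave the range in which the MIR21 change sat. Of the 181 hairpins, 51 had at least 10 times as many 5p as 3p reads in the mean, MIR21 at 164 times among them. The ratio change was above 0 in 33 of these 51, as in 102 of all 181, and its median was 0.34 against 0.13 over all hairpins. The 3p arm's own log2 change was above 0 in 28 of the 51, of which the 3p arm of miR-183 was not tested. None of these ratio changes passed limma's test after adjustment, and the change of MIR21 was the second largest of the 51 and the eighth of all. Taken singly, 1 of the tested 3p arms of the 51 rose by edgeR's test, miR-21-3p, which the study picked from these libraries. Over the tested 3p arms of all 181 hairpins 6 rose, and 2.51% of all tested miRNAs did. Of the 5 others with the most 5p reads, the immune-related miR-146a changed by -0.35 (SE 0.39), let-7i, of the differentiation-linked let-7 family, by 1.30 (SE 0.44), miR-100 by -0.37 (SE 0.47), miR-30d by 0.87 (SE 0.33) and miR-30a by 1.18 (SE 0.42). Leaving out RSL3+IFN-γ replicate 1 moved miR-146a to -0.11 and miR-100 to 0.088, and leaving out RSL3 replicate 1 moved miR-146a to -0.16. Without RSL3+IFN-γ replicate 2 or 3 miR-100 was at -0.56 or -0.64. The ratio of let-7i, miR-30d and miR-30a was higher in all 3 libraries with IFN-γ than in any without it. Such a separation was seen in 9 of the 51 and 25 of all 181 hairpins, and the opposite one in 2 and 16. In each of these 3 hairpins the log2 change of the 5p arm, -0.80, -0.91 and -0.71, was larger in size than that of the 3p arm. None of these 5p changes passed edgeR's test in the main fit. That of let-7i-5p passed in 1 of 15 alternatives and in 1 of 6 fits that left out a library.

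**Figure D4:**
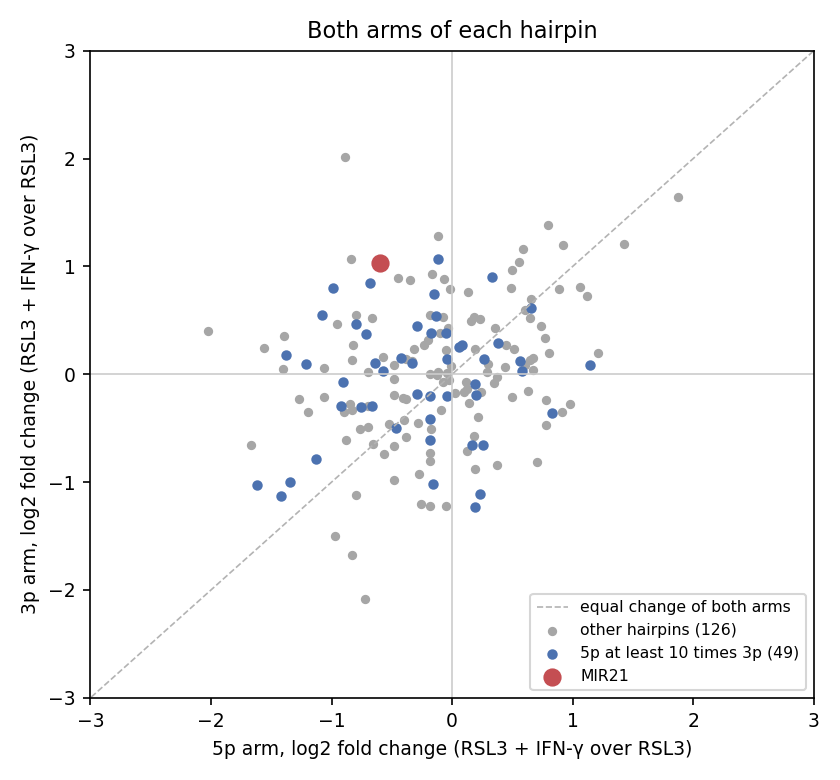
Log2 fold change of the 3p arm against that of the 5p arm (RSL3 + IFN-γ over RSL3, edgeR) for the 176 hairpins with both arms tested; blue points are the 49 other hairpins with at least 10 times as many 5p as 3p reads, grey points the other 126, and the dashed line marks equal change. MIR21 (red) lies at 1.03 for its 3p arm and -0.60 for its 5p arm, above the dashed line.

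Targets were related by sequence to the 5p arm alone, as a description of where its seed can pair; the seed of miR-21-3p was not analysed here, so what follows says nothing of the pairing of that arm with TXNRD1. The letters ATAAGCT, the reverse complement of its bases 2 to 8, were searched on the transcript strand in the 3′UTR of 1 GENCODE 29 transcript per gene, the principal one, or the one with the longest 3′UTR where several qualified. Among 19111 protein-coding genes 7.72% held them, and 2.19% held them followed by A, which lies opposite base 1. None of TXNRD1, IFNGR1, IFNGR2, JAK1, JAK2 and IRF1 held the match in that transcript, nor did ATF3, a stress-induced transcription factor, PTGS2, GPX4 or the cystine transporter subunits SLC7A11 and SLC3A2. The transcripts taken for SLC3A2 and GPX4 have 3′UTRs of only 100 and 218 bases. Of 11 genes long attributed to miR-21-5p, 8 held it, and 7 of them with the following A. The 3 without it were TPM1, BTG2 and RASA1, and the transcripts taken for TPM1 and RASA1 have 3′UTRs of only 114 and 44 bases. That list was drawn from known targets of this arm, so its share is no result of these libraries. No messenger RNA was measured in these libraries.

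The sites are printed for genes of 4 roles, with the 7 bases that pair with the seed in capitals. PDCD4, a translation inhibitor that acts as a tumor suppressor, has its site at chr10:110898319-110898343 (+). SPRY2, a feedback inhibitor of receptor tyrosine kinase signalling, has it at chr13:80336509-80336533 (-). SMAD7, an inhibitor of TGF-β signalling, has it at chr18:48920237-48920261 (-). TIMP3, an inhibitor of matrix metalloproteinases, has 2, of which the first is at chr22:32860398-32860422 (+). All 4 are followed by A.
PDCD4: ggaatattctaATAAGCTacctttt
SPRY2: ccatgtattgcATAAGCTaaagcaa
SMAD7: tagactttaacATAAGCTatttttc
TIMP3: cacatggggacATAAGCTaattttt

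The miRNA that shares this seed, miR-590-5p, was scarce beside miR-21-5p. It was at 8.09, 10.1 and 7.70 CPM with RSL3 and 5.32, 2.39 and 2.26 CPM with RSL3 and IFN-γ, which are 41, 45 and 44 reads and 22, 14 and 14 reads. The groups did not overlap, and the change of -1.40 (SE 0.43) had an adjusted p of 0.0780 in edgeR's test. It was called lower by DESeq2, by edgeR without the filter on low counts, and without RSL3+IFN-γ replicate 1 (-1.89, adjusted p = 0.0180, edgeR). In every library miR-21-5p held far more reads of that seed than miR-590-5p.

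Beside miR-21-3p the study followed 5 other miRNAs, and all 5 passed the test here; since they were picked from these libraries, the count is not independent evidence. The hypoxia-induced miR-210-3p was at 923, 1238 and 1062 CPM with RSL3 and 3482, 3910 and 2662 CPM with IFN-γ, and rose by 1.64 (SE 0.24, edgeR adjusted p = 0.0111). The levels of miR-22-3p, a regulator in several tumors, were 1734, 2022 and 1963 CPM against 4012, 4580 and 4241 CPM, and it rose by 1.17 (SE 0.21, edgeR adjusted p = 0.0184). Both increases were larger in value than that of miR-21-3p, and the differences between these miRNAs were not tested. The other three fell. The log2 change was -2.20 for miR-7-5p, which is known to restrain EGFR signalling, -1.13 for miR-10a-5p, from the HOXB cluster, and -1.62 for miR-9-5p, which is abundant in neural cells, with edgeR adjusted p-values of 0.0316, 0.0315 and 0.0363. Without RSL3 replicate 1 none of the 5 passed edgeR's test, since 0 miRNAs did in that fit (124 at an unadjusted p under 0.05). Without RSL3+IFN-γ replicate 2 or 3 miR-22-3p and the 3 that fell lost their calls too. The change of miR-9-5p was -1.06 (adjusted p = 0.0701, edgeR) without RSL3 replicate 3, its highest library at 10547 CPM, and -1.04 (adjusted p = 0.0935, edgeR) with the GC trend of mature sequences removed. That of miR-10a-5p was -0.75 (adjusted p = 0.0930, edgeR) with the GC trend of hairpin sides removed and -0.70 (adjusted p = 0.0569, limma) with the authors' normalized values. The level of miR-7-5p in RSL3+IFN-γ replicate 1, 17900 CPM, was far above the 4031 and 6161 CPM of the other two libraries of its group, and in the same library miR-21-5p was also highest of its group.

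Besides, a list of miRNAs tied to interferon, STAT and NF-κB responses was looked at. The list was not shown to report IFN-γ signalling in these cells, so it gives no measure of that signalling. Of 13 listed, 12 were tested, 0 rose, 1 fell (miR-9-5p) and 11 did not pass edgeR's test. The unadjusted edgeR p was under 0.05 for 4 of the 12, and for 196 of all 758 tested miRNAs. By DESeq2, and by edgeR with the replicate block, 1 rose (miR-147b-3p) and 1 fell (miR-9-5p). As miR-9-5p is also a candidate that the study picked from these libraries, its call is not independent evidence. In the main edgeR fit 2.51% of all tested miRNAs rose and 4.75% changed. The median log2 change of the 12 was 0.06, against -0.04 over all tested miRNAs. The value of miR-147b-3p was 1.09 (SE 0.35, edgeR adjusted p = 0.0890), with 32.0, 46.5 and 39.9 CPM in the RSL3 libraries and 49.3, 130 and 71.7 CPM in those with IFN-γ. With the replicate block it was 0.99 and passed (adjusted p = 0.0439, edgeR), as it did with library totals (adjusted p = 0.0458, edgeR), and without RSL3+IFN-γ replicate 2 it was 0.61 (adjusted p = 0.286, edgeR). The inflammation-linked miR-146b-5p, at 0.56 (SE 0.25, edgeR adjusted p = 0.186), ran from 901 to 1087 CPM and from 1194 to 1876 CPM. It passed with library totals (0.89, adjusted p = 0.0458, edgeR) and was 0.31 without RSL3+IFN-γ replicate 1. These 2 of the 12 were separated upwards, near the 15% of all tested miRNAs. The STAT-linked miR-29b-3p gave 0.71 (SE 0.29, edgeR adjusted p = 0.164) with overlapping groups. It passed with library totals (1.01, adjusted p = 0.0383, edgeR), with the authors' normalized values (adjusted p = 0.0264, limma) and with the GC trend of mature sequences removed (1.20, adjusted p = 0.0473, edgeR), and without RSL3+IFN-γ replicate 1 it was 0.35. The groups also overlapped for miR-155-5p, an NF-κB target of immune cells, at 390, 232 and 372 CPM with RSL3 and up to 393 CPM with IFN-γ, and miR-155-3p was seen with 3 reads in 1 library of each group.

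The miRNAs whose levels ran most like each arm over the 6 libraries were different sets. Likeness was Pearson's r of log2(CPM + 1) over 6 libraries, among the 472 other tested miRNAs that averaged 10 CPM or more; the libraries share depth, treatment and scaling, and r is given as a description. The nearest to miR-21-3p were miR-22-3p (r = 0.98), miR-320b (0.98), miR-30a-3p (0.98), miR-3661 (0.98) and miR-3187-3p (0.97), all with groups that did not overlap. That separation is largely set by picking them for likeness to an arm whose groups are separated, and 15% of all tested miRNAs were separated upwards. Of these neighbours, miR-22-3p passed edgeR's test. The log2 changes of the others were 0.84, 0.38, 1.23 and 0.81, with edgeR adjusted p-values of 0.0648, 0.274, 0.0511 and 0.0648. Beside settings that left out a library, miR-320b passed in 10 of 15 alternatives, miR-3661 in 10 of 13 and miR-3187-3p in 6 of 15, the last with changes from 0.29 to 1.24. With the replicate block miR-3661 (adjusted p = 0.0398, edgeR) and miR-3187-3p (adjusted p = 0.0383, edgeR) passed. The nearest to miR-21-5p were miR-19a-3p (r = 0.99), miR-330-3p (0.98), miR-221-5p (0.98), miR-1323 (0.96) and miR-548am-3p (0.96). Their changes, from -1.40 to -0.24, did not pass the test. With the block miR-19a-3p (adjusted p = 0.0353, edgeR), miR-221-5p (adjusted p = 0.0416, edgeR) and miR-548am-3p (adjusted p = 0.0439, edgeR) passed. In the fit with the block 82 of all 758 tested miRNAs passed, 39 up and 43 down. The neighbours of miR-21-5p were likewise picked for likeness to an arm whose TMM-scaled groups did not overlap. Their direction is therefore not independent evidence. Between the arms themselves r was -0.67, which placed each at rank 364 or 365 in the order of likeness to the other.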

How the data were processed

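Per the labels, small RNA of 6 libraries was sequenced and the submitters list edgeR, Bowtie 1.1.1, bcl2fastq and the GRCh38 build; for the miRNA release, mismatches and multiply mapping reads nothing is stated. The authors deposited raw counts per mature miRNA, used here, and a normalized signal (counts scaled to a library total set by the authors), used as an alternative. Their fold changes and p-values in the same table were not used. Counts were tested with edgeR 4.0.16 in R 4.3.3 (quasi-likelihood, TMM, filter at a minimum count of 10 and total of 15, 758 of 1596 kept, Benjamini-Hochberg adjustment, threshold 0.05) and arm ratios with limma 3.58.1; DESeq2 1.42.0 was an alternative. Exact permutation tests were two-sided. Scripts were tested on simulated data. Same-numbered libraries deviated together from their group means across tested miRNAs (correlations of 0.249, 0.233 and 0.224, each above 0.1). Libraries with different numbers gave -0.296 to 0.034. Deviations from a group mean constrain each other, so these correlations are not independent. The main tests and the permutation tests were unpaired, and the numbers entered as a block in an alternative only. What the numbers stand for is not given. The members, the lists and the rule for named miRNAs (both arms, the study's other candidates, an interferon list, shared seeds, the nearest 5 patterns, level neighbours and the 5p-dominated hairpins) were chosen with earlier results of these data known. Some listed target genes are not reported here.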

Additional observations from a re-analysis of the deposited data

How the results depend on the processing

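With 3 libraries a group, their number limits precision more than depth does, since counting intervals of both arms were narrow. The log2 change of miR-21-3p was positive and that of miR-21-5p negative in every setting run. That of miR-21-3p was 0.92 with upper-quartile factors and 0.92 to 1.11 without each library in turn, that of miR-21-5p -0.93 to -0.37, and the ratio change 1.46 to 1.98 (1.71 with 5 reads added and with 50 reads needed, 1.44 with the GC difference of hairpin sides removed). The 3p share of MIR21 reads differed by 0.569 to 0.932 percentage points without each library, and the 5p share of counts by -9.21 to -3.12; without RSL3+IFN-γ replicate 2 it was the latter. With the replicate block, which pairs the libraries, miR-21-3p was at 1.04 (adjusted p = 0.0252, edgeR), miR-21-5p at -0.67 (adjusted p = 0.127) and the ratio at 1.71 (adjusted p = 0.104, limma); the block changed no call of these 3. The number of miRNAs called was 71 with library totals (60 up, 11 down), 58 with totals without miR-21-5p (43 up, 15 down), 96 with DESeq2, 106 without a filter, 82 with the block, 72 with the authors' normalized values (63 up, 9 down) and, with the GC trend removed, 24 by mature sequences (14 with the block) and 17 by hairpin sides (32 with the block); the cause was not tested; without each library it was 0 (without RSL3 replicate 1, where 124 had an unadjusted p under 0.05) to 95 (without RSL3+IFN-γ replicate 1). The number of hairpins called was 4 with 5 reads added, 2 with 50 reads needed, 1 and 2 with the GC difference of the sides removed, without and with the block, and 0 to 1 without each library. The change of miR-330-3p turned to 0.10 with library totals and 0.19 with the authors' values, and the ratio change of miR-100, -0.64 to 0.088 without each library, to the latter without RSL3+IFN-γ replicate 1; the cause was not tested. The GC content of the hairpin sides was added after seeing the data, because the GC correction by mature sequence gave no value for miR-21-3p or the MIR21 ratio.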
